A study of Mus musculus with 4 samples.

Results

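Interferon-stimulated genes are the antiviral and regulatory genes that cells turn on when they sense interferon. A list of 39 mouse genes of this kind was followed by gene symbol, and 38 of them were found among the 31053 genes of the table; Mx2 was not analysed here. The data are droplet-based single-cell RNA counts of cells freed by dispase, collagenase and trypsin from trabecular bone, taken at both ends of the tibia (proximal and distal). The labels give 1 group, mice aged 8 weeks that received no PTH and that served as heterozygous controls. They carried Col10a1Cre and the Rosa26-Tdtomato reporter, with 1 altered copy each of Irx3 (Irx3 +/Δ) and Irx5 (Irx5 +/-). The Cre driver acts in hypertrophic chondrocytes of the growth plate, so all cells described below come from animals with this genotype and none from wild-type animals. The 4 sample records were pooled in 1 matrix whose barcodes share 1 suffix, and nothing in the labels ties a record to an animal. Everything below therefore describes 1 unreplicated library, animals could not be compared by any test, and each 95% interval covers counting error only.

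Interferons bind receptors on the cell surface, and the kinases JAK1 and TYK2 then activate STAT proteins. One of these, STAT2, forms part of a complex with IRF9 that binds the interferon-stimulated response element (ISRE) in gene promoters, while the gamma-activated site is bound after interferon-gamma. In bone marrow, interferon reaches cells at all stages of blood formation, and many of these genes also have a level without interferon that depends on the cell type.

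The promoters show what part of the list shares the response element. RefSeq's table (build GRCm38.p6, 300 bases from 250 before to 50 after each start) held 30 of the 39 genes. The ISRE core, written GAAANNGAAA and searched on both strands, lay in 18 of these 30 promoters (60%), against 3.99% of all 27025 genes in the table. The gamma-activated site TTCNNNGAA lay in 8 of the 30 (26.7%), against 9.55% of all genes. Ifit2, Isg20, Oasl1, Oasl2, Ifi44, Ifi35, Xaf1, Ifitm1, Ifitm6, Samd9l, Herc6 and Cmpk2 had no ISRE core in this window, which says only that these letters are absent there. The promoters shown were chosen because the expression results below turn on these genes. Capitals mark the ISRE core or, on the other strand, its complement. In Ifitm6 they mark the gamma-activated site instead. Each window is 100 bases, read in the direction of the gene. Isg15 is at chr4:156200836-156200935 on the minus strand and holds 3 overlapping copies of the core. Rsad2, at chr12:26456518-26456617 on the minus strand, holds 1. Ifit1 is at chr19:34640749-34640848 on the plus strand, with 2 copies. Ifit3 and Ifit3b, at chr19:34583345-34583444 and chr19:34607741-34607840 on the plus strand, were identical at 100 of 100 bases. Bst2 is at chr8:71537545-71537644, Ifitm2 at chr7:140955962-140956061 and Ifitm6 at chr7:141016893-141016992, all on the minus strand. For Bst2 and Ifit3b, the bases just after the RefSeq start were not found in a GENCODE M21 transcript of the gene. For the other promoters shown they were.
Isg15: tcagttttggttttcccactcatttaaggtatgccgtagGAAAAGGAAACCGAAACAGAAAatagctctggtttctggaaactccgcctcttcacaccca
Rsad2: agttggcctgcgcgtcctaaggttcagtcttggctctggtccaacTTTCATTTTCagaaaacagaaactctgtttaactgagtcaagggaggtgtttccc
Ifit1: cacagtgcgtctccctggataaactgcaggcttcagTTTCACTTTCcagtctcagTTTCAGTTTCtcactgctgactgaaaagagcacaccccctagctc
Ifit3: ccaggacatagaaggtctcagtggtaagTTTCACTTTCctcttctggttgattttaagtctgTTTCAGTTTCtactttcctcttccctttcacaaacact
Ifit3b: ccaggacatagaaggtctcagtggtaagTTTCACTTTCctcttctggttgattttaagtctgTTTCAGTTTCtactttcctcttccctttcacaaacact
Bst2: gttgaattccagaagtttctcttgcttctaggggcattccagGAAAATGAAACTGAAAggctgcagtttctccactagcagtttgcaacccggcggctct
Ifitm2: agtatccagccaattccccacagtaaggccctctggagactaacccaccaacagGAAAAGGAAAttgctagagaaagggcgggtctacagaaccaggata
Ifitm6: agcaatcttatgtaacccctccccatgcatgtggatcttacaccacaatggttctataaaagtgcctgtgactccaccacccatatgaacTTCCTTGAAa

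After filters on depth and mitochondrial share and the removal of doublets, 10485 of 15014 barcodes were kept, with a median of 4855 UMIs (unique molecular identifiers) per cell. They formed 32 clusters, of which 27 took a class name from marker genes and 5, with 254 cells, stayed unnamed. The 15 classes ranged from 3475 B lineage-like and 2808 neutrophil-like cells to 34 osteoclast-like cells, and the listed genes took no part in the clustering. The 38 genes gave 155115 UMIs in all, 0.214% of the UMIs of kept cells, and the 4 Ifitm genes gave 60.9% of these. Levels are UMIs of a gene per 1000000 UMIs of the class (CPM), with exact Poisson intervals. Because free RNA from lysed cells enters every droplet, a low level in a class need not be its own: the neutrophil gene S100a8 had 447 CPM in B lineage-like cells, 0.408% of its 109726 CPM in neutrophil-like cells. The share was larger in other classes, with 5.99% in macrophage-like, 4.58% in basophil-like and 12.8% in osteoblast-like cells, and Hbb-bs in macrophage-like cells had 10.1% of its level in erythroid-like cells. Ifitm6 had 16.1 CPM in B lineage-like cells, 0.761% of its level in neutrophil-like cells.

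A gene was called higher or lower in a class where its summed level was at least 2 times, or at most 1/2 of, that of all other kept cells and the interval of the ratio left out 1, given at least 20 UMIs on both sides together. The same rule over all genes gives the background. The 38 genes had a median of 1027 UMIs and all 13615 genes compared a median of 1004; the listed genes ran from 24 UMIs (Ifit3b) to 42289 (Ifitm6). In monocyte-like cells 23 of the 38 genes were called higher and 2 lower, against 12.3% of all genes higher and 16.8% lower. Macrophage-like cells had 19 higher and 3 lower (12.1% and 9.82% of all genes), and plasmacytoid dendritic-like cells 11 higher and 8 lower (15.9% and 8.89%). With only cells of at least 1500 UMIs macrophage-like cells had 11 higher and 6 lower, and with doublets kept plasmacytoid dendritic-like cells had 7 higher. In granulocyte-monocyte progenitor-like cells, which precede neutrophils and monocytes, none was called higher and 28 were lower (7.17% and 26.7%). B lineage-like cells had 4 higher and 21 lower, the reverse of the balance of all genes there (36.4% higher and 19.9% lower). The 4 became 1 at a mitochondrial limit of 5%, where 560 B lineage-like cells were kept, 2 without haemoglobin genes and 0 without the 50 most abundant genes. T-like cells, with 5 higher and 9 lower (11.9% and 13.4%), and neutrophil-like cells, with 6 higher and 16 lower (9.25% and 49.3%), lay nearer to the background. At the limit of 5% neutrophil-like cells had 3 higher and no cluster was named T-like. Erythroid-like cells had 7 higher and 22 lower (5.32% and 67.2%), with 11 higher when haemoglobin genes were left out. Haemoglobin takes up much of an erythroid cell's UMIs and pushes down the level of every other gene.

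**Figure D1:**
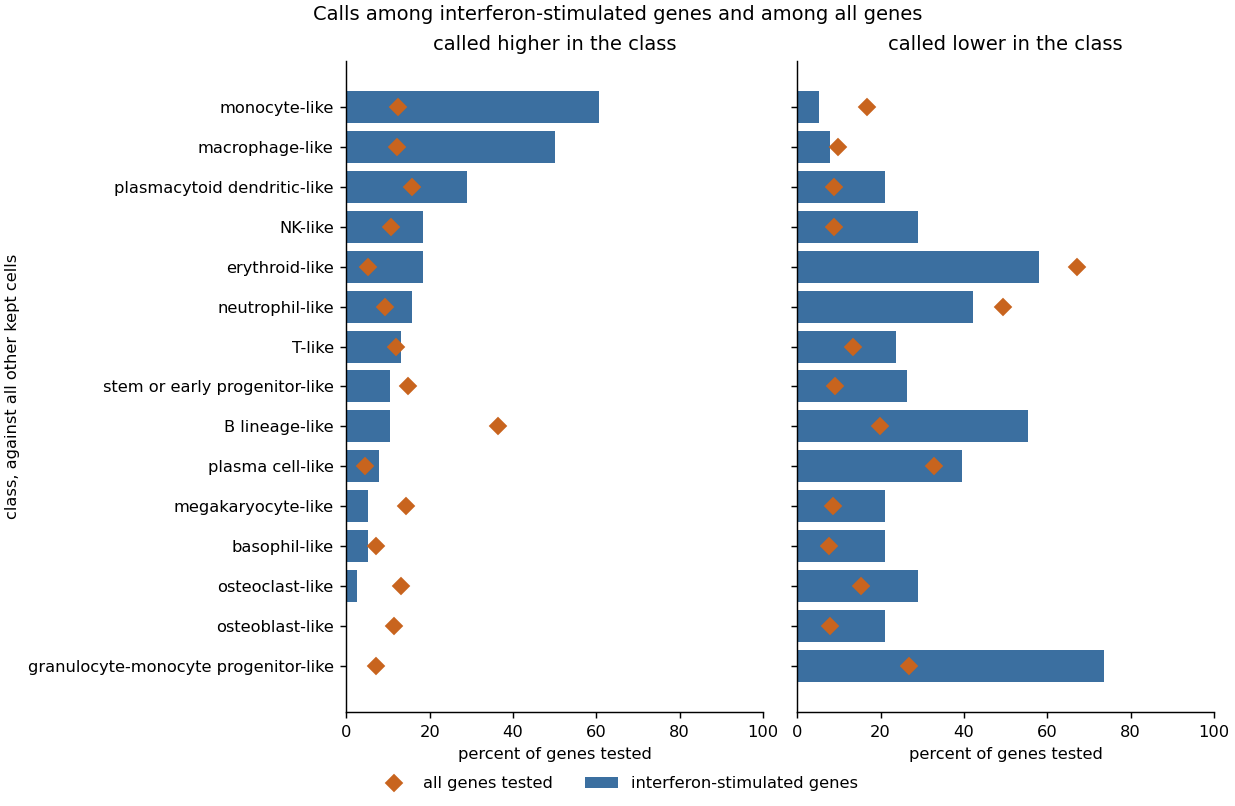
Share of genes called higher (left) and lower (right) in each of the 15 classes against all other kept cells, in percent of genes compared; bars are the 38 interferon-stimulated genes and diamonds all genes. In monocyte-like cells the bar of genes called higher (23 of 38) lies far beyond the diamond (12.3%), and in granulocyte-monocyte progenitor-like cells there is no such bar.

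The highest level of a gene fell in one of 9 classes. Macrophage-like and monocyte-like cells were highest for 9 genes each, plasmacytoid dendritic-like cells for 8, erythroid-like cells for 5 and neutrophil-like cells for 3. Basophil-like, T-like, NK-like and megakaryocyte-like cells were each highest for 1. For 17 of the 38 genes the ratio of the highest to the next class had an interval above 1, so for the other genes the leading class was not separated from the next at this depth. Classes were compared whole here, and a single stage of a class can lie above the leading class. Mature neutrophil-like cells, described below, had 1537 CPM of Ifitm2, 149 CPM of Rtp4 and 50.2 CPM of Ddx58, above the leading class of each. Among other genes, they also lay above the leading class for Isg15 (89.98 CPM), Cmpk2 (41.7 CPM) and Ifit1 (30.6 CPM).

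**Figure D2:**
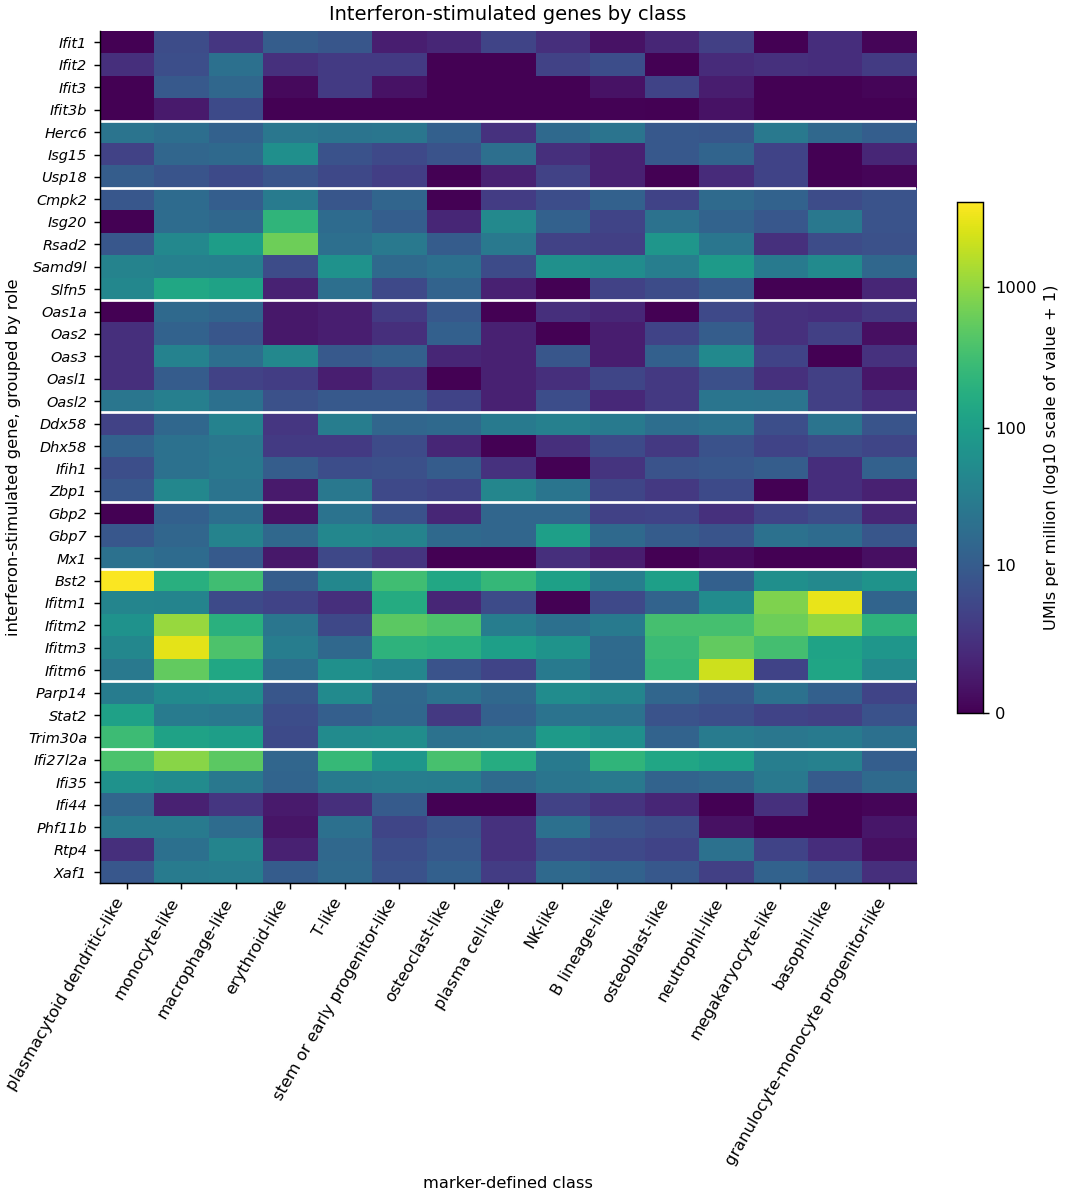
Level of each of the 38 genes (rows, in 9 groups by role, divided by white lines) in each of the 15 classes (columns), as colour on a log10 scale of CPM plus 1. The brightest fields are Bst2 in plasmacytoid dendritic-like cells (3808), Ifitm1 in basophil-like cells (3009), Ifitm3 in monocyte-like cells (2846) and Ifitm6 in neutrophil-like cells (2118), and Rsad2 and Isg20 stand out in erythroid-like cells.

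The membrane restriction factors had the highest levels, and different classes led for them. Bst2 encodes tetherin, which holds budding virus at the cell surface and in mice is also known as an antigen of plasmacytoid dendritic cells. It reached 3808 CPM in plasmacytoid dendritic-like cells (interval 3636 to 3987; all 70 cells had a UMI), against 56.7 CPM in all other kept cells, a ratio of 67.1 (63.5 to 71.0). The next class was stem or early progenitor-like cells with 316 CPM (291 to 341). The IFITM proteins sit in membranes and block the entry of viruses. Ifitm1 had 3009 CPM in basophil-like cells (2862 to 3162), against 31.0 CPM elsewhere, and 808 CPM in megakaryocyte-like cells (729 to 893). Ifitm3 was highest in monocyte-like cells with 2846 CPM (2804 to 2888), against 547 CPM in neutrophil-like cells. Ifitm2 had 1123 CPM in monocyte-like and 1044 CPM in basophil-like cells, whose intervals overlap (1097 to 1150 and 958 to 1136). Ifitm6 had 2118 CPM in neutrophil-like cells (2096 to 2140), 3.95 times its 536 CPM in monocyte-like cells. T-like cells were low for Ifitm2 (5.11 CPM) and Ifitm3 (15.3 CPM). Ifitm2, Ifitm1, Ifitm3 and Ifitm6 lie close together on chromosome 7, and these 4 genes were highest in 3 different classes. They are similar in sequence, and how reads shared between them were counted was not tested.

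Among whole classes, several RNA and nucleotide enzymes, and Isg15, were highest in erythroid-like cells. Rsad2 encodes viperin, an enzyme that makes a chain-ending nucleotide, and lies next to Cmpk2, a nucleotide kinase, on chromosome 12. Rsad2 had 633 CPM in erythroid-like cells (620 to 647) and a UMI in 1289 of 1910 cells, against 25.6 CPM in all other kept cells, a ratio of 24.7 (23.4 to 26.1). The exonuclease gene Isg20 had 229 CPM (221 to 238), against 11.9 CPM elsewhere. Isg15, a ubiquitin-like protein that is joined to other proteins, had 61.7 CPM (57.6 to 66.0), against 8.05 CPM. Ifit1 (10.4 CPM), Cmpk2 (30.5 CPM) and Oas3 (47.6 CPM) were called higher too, as was Usp18, which removes ISG15 again (7.95 CPM). Other members of the same families were not. Ifit3b had 0 UMIs in erythroid-like cells, which allows up to 0.219 CPM for reads told apart from those of Ifit3. Oas2 and Oas1a were called lower. The lead of Ifit1 was not separated from T-like cells (8.17 CPM, ratio 1.27, 0.626 to 2.99). Mature neutrophil-like cells lay above the whole erythroid-like class for Isg15 (89.98 CPM), Cmpk2 (41.7 CPM), Ifit1 (30.6 CPM) and Oas3 (180 CPM). They lay below it for Rsad2 (193 CPM) and Isg20 (47.6 CPM). Single erythroid-like clusters reached 141 CPM of Isg15, 62.7 CPM of Cmpk2, 34.3 CPM of Ifit1 and 106 CPM of Oas3. Samd9l, a regulator of growth and translation, was highest in neutrophil-like cells (90.7 CPM), and Slfn5, of the Schlafen family, in monocyte-like cells (138 CPM, against 6.50 CPM elsewhere, a ratio of 21.2 from 18.9 to 23.8). Herc6, which attaches ISG15 in the mouse, was nearly even, with 27.4 CPM in megakaryocyte-like and 26.1 CPM in erythroid-like cells.

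Rsad2 was also found outside erythroid-like cells, beside haemoglobin. Macrophage-like cells had 101 CPM of Rsad2 (79.8 to 127), 75 UMIs in 19 of 226 cells, and 24287 CPM of the haemoglobin gene Hbb-bs, against 240224 CPM in erythroid-like cells. Macrophages of the marrow take up red cell nuclei and erythroid cells, and the part of such RNA in the Rsad2 level was not tested. B lineage-like cells had 3.77 CPM of Rsad2 and 1776 CPM of Hbb-bs.

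Among whole classes, monocyte-like and macrophage-like cells led for most OAS genes, the sensors and the IFIT genes other than Ifit1. Those OAS proteins that are active enzymes make the signal that activates RNase L. Oas1a (15.7 CPM), Oas2 (12.5 CPM), Oasl1 (10.1 CPM) and Oasl2 (34.5 CPM) were highest in monocyte-like cells, while Oas3 was highest in neutrophil-like cells with 50.5 CPM (47.2 to 54.0), not separated from erythroid-like cells with 47.6 CPM (44.0 to 51.4). The mature stage of neutrophil-like cells lay above monocyte-like cells for Oas2 (40.4 CPM), Oasl1 (59.3 CPM) and Oasl2 (180 CPM). It lay below them for Oas1a (9.78 CPM). The RNA sensors Ifih1, Ddx58 (RIG-I) and Dhx58 had 27.0, 37.9 and 25.7 CPM in macrophage-like cells. Ddx58 was as high in NK-like cells (36.5 CPM, interval 21.6 to 57.7). Zbp1, a sensor of Z-form nucleic acids, had 45.5 CPM in monocyte-like and 44.4 CPM in plasma cell-like cells. The IFIT proteins bind foreign RNA. Ifit3 had 14.9 CPM in macrophage-like cells (7.42 to 26.6), against 1.52 CPM elsewhere, and Ifit2 20.3 CPM (11.4 to 33.5), against 3.55 CPM. Ifit3b reached 5.41 CPM from 4 UMIs. Its coding sequence is close to that of Ifit3. How reads shared by these copies were counted was not tested, so the level of each is uncertain. Macrophage-like cells had a median of 1063 UMIs per cell, the lowest of all classes. Ifi27l2a, which encodes a small interferon-induced protein, had 915 CPM in monocyte-like cells (892 to 939) and 489 CPM in macrophage-like cells. Rtp4, Xaf1 and Parp14 had 40.6, 32.5 and 56.8 CPM in macrophage-like cells.

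Plasmacytoid dendritic cells are the main makers of type I interferon during infection. Besides Bst2, the 70 cells of this class were highest for Trim30a (291 CPM, interval 244 to 343), a TRIM protein that dampens Toll-like receptor signals, and for Stat2 (115 CPM, 86.6 to 150, against 13.1 CPM elsewhere). Ifi35 (66.9 CPM), Mx1 (20.9 CPM), Ifi44 (14.6 CPM), Phf11b (29.3 CPM) and Usp18 (10.5 CPM) were highest there too, each with an interval that overlaps that of the next class. Isg20 and Ifit1 had 0 UMIs, which allows up to 6.27 CPM. The receptor genes Ifnar1 (401 against 49.95 CPM in all other kept cells) and Ifnar2 (337 against 56.5 CPM) were called higher, as were the transcription factor genes Irf7 (89.9 against 22.3 CPM) and Irf9 (113 against 38.6 CPM). Of 9 genes in the list of receptors and kinases 6 were called higher and none lower, against 15.9% and 8.89% of all genes. Of the 13 interferon genes followed, 2 had a UMI: Ifng had 50, of which 23 were in NK-like, 18 in T-like, 8 in B lineage-like and 1 in neutrophil-like cells, and Ifnab had 1.

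The guanylate-binding proteins attack membranes around microbes. Gbp2 and Gbp7 were both called higher in NK-like, T-like and macrophage-like cells, and neither was called in B lineage-like cells (3.99 and 16.0 CPM). Gbp7 alone was also called higher in stem or early progenitor-like cells (40.0 CPM), and Gbp2 alone in plasma cell-like (14.4 CPM) and monocyte-like cells. Within the B lineage, Gbp7 had 79.9 CPM in a cluster of 284 cells leading with Dntt, and 8.46 CPM in one of 873 cells leading with Myl4. Gbp7 had 106 CPM in NK-like cells (78.8 to 138), against 14.0 CPM elsewhere, 44.95 CPM in T-like cells and 39.2 CPM in macrophage-like cells. Gbp2 had 22.5 CPM in T-like cells (14.1 to 34.0), against 4.51 CPM elsewhere, with 18.9 CPM in macrophage-like, 14.2 CPM in NK-like and 11.7 CPM in monocyte-like cells. Phf11b was called higher in T-like cells (20.4 CPM), as were Zbp1 (26.6 CPM) and the ADP-ribosyltransferase gene Parp14 (52.1 CPM). In B lineage-like cells Parp14 had 42.1 CPM, against 16.2 CPM elsewhere, and Ifi44, Ifit2 and Ddx58 were the other genes called higher. Isg15 had 1.13 CPM there, with a UMI in 19 of 3475 cells.

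Across the 15 classes, the pattern of Isg15 was most like that of Rsad2 (Spearman's rho 0.864), that of Mx1 most like that of Stat2 (0.818) and that of Ifi27l2a most like that of Slfn5 (0.824). Bst2 and Ifih1 had weaker best matches, Stat2 and Oas3 (both 0.568). These values describe 15 points that share 1 library, with class sizes from 34 to 3475 cells.

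Neutrophil-like cells gained most of the listed genes with maturation. The class fell into 591 granule-making cells (leading with Camp, Ngp and Chil3), 1455 intermediate cells (Ly6g, Mmp8 and Retnlg) and 762 mature cells (Cxcl2 and Stfa2l1). In mature against granule-making cells, 29 of the 33 genes with at least 20 UMIs were called higher and none lower, against 22% of all genes higher and 26.1% lower. Their median log2 ratio was 3.29, against -0.16 for all genes. The 5 genes with fewer UMIs were Ifit3, Ifit3b, Mx1, Ifi44 and Phf11b. Depth differed: the median was 13746 UMIs per granule-making cell, 4826 per intermediate cell and 1822 per mature cell. Ifitm1 had 2.09 CPM in granule-making, 27.2 CPM in intermediate and 451 CPM in mature cells. Its ratio of mature to granule-making cells was 216 (134 to 373). Ifit1 had 0.245 CPM in granule-making (2 UMIs), 2.25 CPM in intermediate and 30.6 CPM in mature cells (47 UMIs), a ratio of mature to granule-making cells of 125 (32.7 to 1061). In the same order of stages Oasl2 had 1.84, 17.2 and 180 CPM (ratio 97.7, 58.2 to 177), and Oasl1 0.614, 2.52 and 59.3 CPM (ratio 96.7, 39.9 to 305). Every one of these genes was lowest in granule-making and highest in mature cells, with the larger step between intermediate and mature cells.

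Cells thinned to 1000 UMIs each gave the same order. Isg15 was then detected in 0.348% of granule-making cells, 1.33% of intermediate cells and 57 mature cells (7.89%, exact binomial interval 6.03% to 10.1%). Without thinning, 3.55% of granule-making, 4.33% of intermediate and 13.3% of mature cells had a UMI. In B lineage-like cells the thinned share was 0.0878%. Rsad2 was detected in 0.348% of thinned granule-making, 1.82% of intermediate and 10.9% of mature cells (8.76% to 13.4%). Most mature cells had no detected UMI of either gene at this depth. Haemoglobin Hbb-bs was at 1961 CPM in granule-making cells, with 3.44 CPM of Rsad2. It was at 1126 CPM in the larger intermediate cluster (6.80 CPM of Rsad2), at 4834 CPM in the later one (46.8 CPM of Rsad2) and at 4645 CPM in mature cells (193 CPM of Rsad2). Its part in the Rsad2 level was not tested.

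Ifitm6 had another course. It had 1045 CPM in granule-making (1023 to 1067), 3591 CPM in intermediate (3548 to 3634) and 575 CPM in mature cells (538 to 614), so it was highest in the middle stage. Within that stage it had 3890 CPM in the larger cluster of 1008 cells, which leads with Ly6g and Ltf, and 2403 CPM in the later one of 447 cells, which leads with Retnlg. From granule-making to intermediate to mature cells, the neighbouring Ifitm2 had 157, 313 and 1537 CPM and Ifitm3 269, 777 and 891 CPM. The ratio of Ifitm6 in mature to granule-making cells, 0.551 (0.513 to 0.590), turned above 1 at 5 other settings that drew the stages differently, up to a log2 ratio of 0.69. Samd9l (56.5, 126 and 100 CPM in granule-making, intermediate and mature cells), Stat2 (6.87, 5.57 and 8.48 CPM) and Ifit2 (2.70, 0.663 and 2.61 CPM) were not called either. The interferon pathway genes Irf9 (83.5 CPM in mature, against 14.5 CPM in granule-making cells) and Irf7 (52.2 against 12.03 CPM) were called higher in mature cells. Of 31 further interferon-stimulated genes compared, 17 were called higher and 2 lower, against 22% and 26.1% of all genes.

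**Figure D3:**
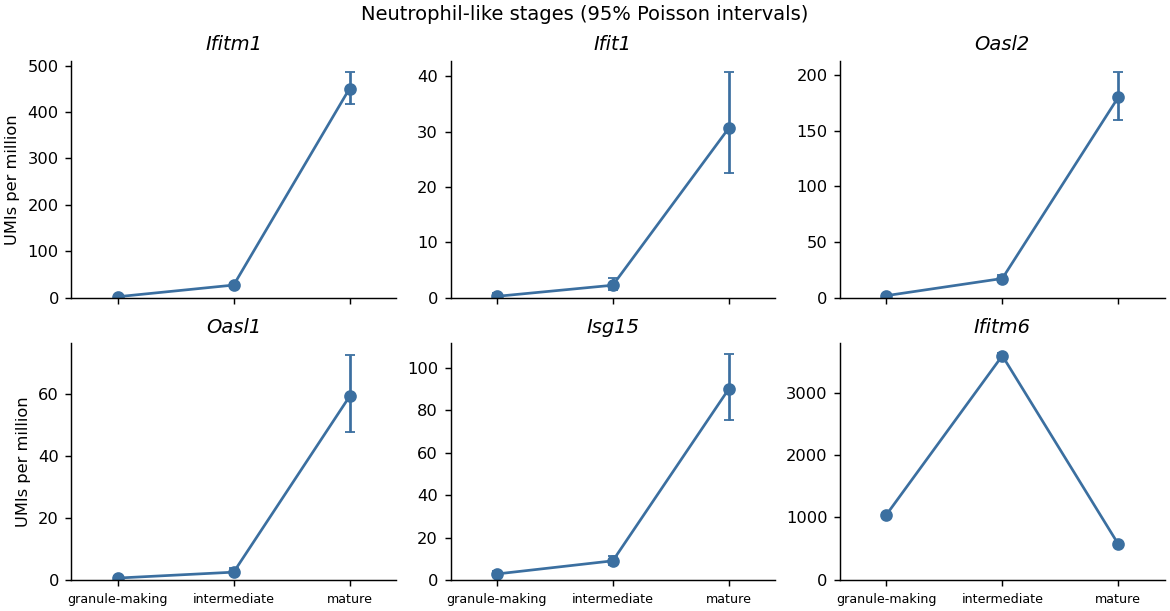
Levels of 6 genes in the 3 neutrophil-like stages, in CPM of the stage on linear axes that start at 0; bars are exact 95% Poisson intervals. Ifitm1, Ifit1, Oasl2, Oasl1 and Isg15 are highest in mature cells, while Ifitm6 is highest in intermediate cells (3591).

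In the erythroid-like class the listed genes parted company as haemoglobin accumulated. Cells were staged by the share of their UMIs that came from haemoglobin genes: under 20% (359 cells), 20 to 75% (748 cells) and over 75% (803 cells). Rsad2 had 24.5, 670 and 915 CPM in this order, and a UMI in 24, 539 and 726 cells. Thinned to 1000 UMIs, 0.408%, 37.6% and 52.6% of cells had one, against 0.351% of B lineage-like cells. Ifit1 had 0.360, 10.7 and 15.2 CPM, Isg15 7.20, 77.4 and 73.5 CPM, Oas3 8.29, 48.9 and 67.1 CPM and Isg20 124, 294 and 215 CPM. Other members were called lower in the last stage against the first on this scale, as were 94.7% of all genes. Ifit2 had 8.29, 1.06 and 0 CPM, Ifitm2 98.7, 9.498 and 2.48 CPM, Oasl1 7.56, 4.75 and 0.191 CPM and Gbp7 41.8, 15.1 and 1.33 CPM. With haemoglobin genes left out Oasl1 was not called. One erythroid-like cluster of 125 cells also held B lineage RNA, with 139 CPM of Rag1 and 163 CPM of Vpreb1. Its Ifi27l2a level was 71.8 CPM. In the largest erythroid-like cluster, of 576 cells, Rag1, Vpreb1 and Ifi27l2a had 1.38, 1.93 and 5.50 CPM. The part of B lineage RNA in the erythroid-like levels was not tested.

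Because haemoglobin made up 4.88% of the UMIs of the first stage, 52.1% of the middle one and 86.7% of the last, both scales are needed. With all UMIs as the base, 5 of 25 genes compared were called higher in the last stage against the first and 16 lower, against 1.34% and 94.7% of all genes. With haemoglobin genes left out, 13 were called higher and 4 lower, against 8.11% and 65.6%. Rsad2, Isg15, Ifit1, Oas3 and Oasl2 were called higher on both scales. On the scale without haemoglobin Rsad2 had 6895 CPM in the last stage (6701 to 7092), against 25.8 CPM in the first, a ratio of 268 (211 to 345), and Isg20 1622 CPM, against 130 CPM. With all UMIs as the base the ratio of Isg20 was 1.74, which was not called. Ifit2, Ifitm2, Gbp7 and Bst2 were called lower on both scales. Without haemoglobin, Bst2 had 10.0 CPM in the last stage, against 29.5 CPM in the first. Cmpk2, Usp18, Ifi27l2a and Ifi35 were called lower with all UMIs as the base and higher without haemoglobin, so the direction of these 4 genes rests on the base. Irf7 was called higher on both scales (20.96 against 9.01 CPM of all UMIs).

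**Figure D4:**
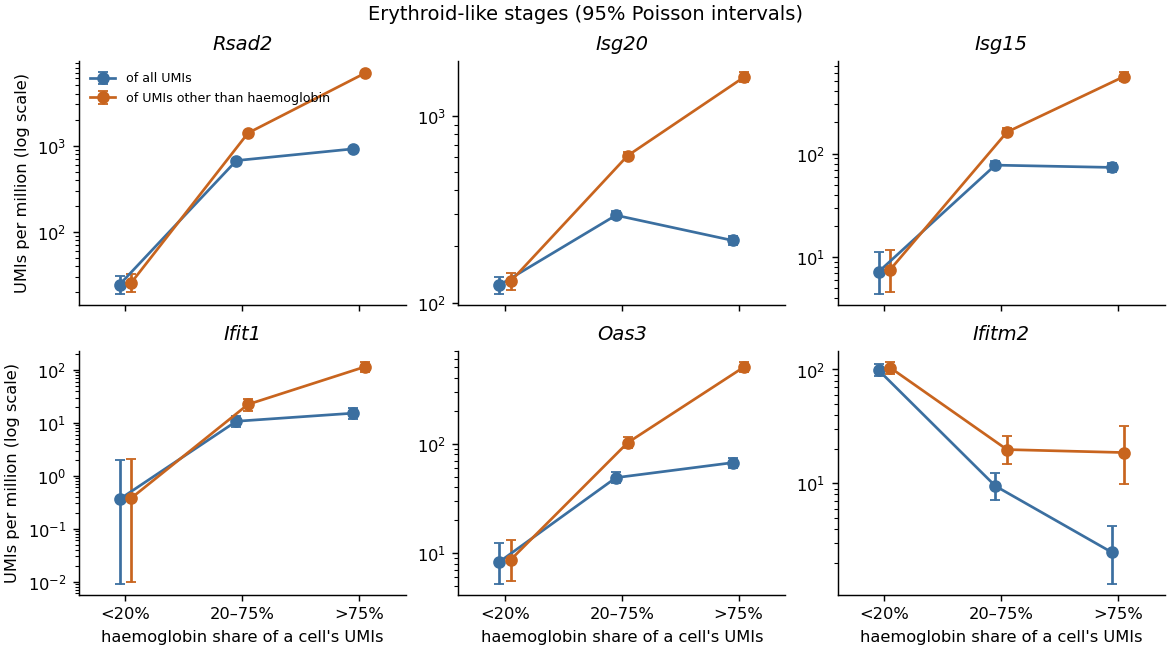
Levels of 6 genes in the 3 erythroid-like stages by haemoglobin share, on log axes; blue is CPM of all UMIs, orange CPM of UMIs other than haemoglobin, and bars are exact 95% Poisson intervals. Rsad2, Isg15, Ifit1 and Oas3 lie above their first-stage level in the last stage on both scales, and Ifitm2 lies below it on both.

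B lineage-like cells changed less. Mature B cells (1117, from clusters leading with Ms4a1 or with Fcer2a and Ighd) were set against pro-B and large pre-B cells (1157, from a cluster leading with Dntt and Vpreb1 and a larger one leading with Myl4 and Lgr5), and no cluster took the immature B stage. The cluster leading with Ms4a1 held 590 of the 1117 cells, and its Ighd level was 242 CPM, against 1080 CPM in the other. At 5 other settings an immature B stage of 406 to 1293 cells was set apart. Of 30 genes compared, 8 were called higher and 4 lower, against 12.1% and 16.3% of all genes. The genes called higher were 3 at a mitochondrial limit of 5% and 5 with at least 1500 UMIs per cell. Those called lower were 2 with at least 1500 UMIs and 0 with stages as gates on single cells. The PHD finger gene Phf11b had 24.4 CPM in mature B cells, against 2.34 CPM in pro-B and large pre-B cells (ratio 10.5, 6.76 to 16.7). Zbp1 had 12.6 against 1.99 CPM, Slfn5 11.6 against 1.99 CPM and Samd9l 124 against 24.8 CPM. Isg20, Ddx58, Oasl1 and Trim30a were the other genes called higher. Ifi44 (1 UMI and 0.257 CPM in mature B cells, against 3.72 CPM), Ifitm2 (11.3 against 39.4 CPM), Ifih1 (1.03 against 2.94 CPM) and Ifit2 (3.08 against 8.56 CPM) were called lower. The 2 clusters of the early stage differed for these genes. In the Dntt cluster of 284 cells Ifi44, Ifitm2, Ifih1 and Ifit2 had 18.6, 128, 7.14 and 12.4 CPM. In the Myl4 cluster of 873 cells they had 0.423, 19.8, 2.01 and 7.72 CPM, nearer to mature B cells. Small pre-B cells (1201) were at 3.87 CPM for Phf11b, 84.0 CPM for Samd9l and 54.6 CPM for Ddx58. Isg15, Ifit1 and Rsad2 stayed between 0.323 and 5.40 CPM in all 3 stages.

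The genes were also counted per cell, after thinning each cell to 2000 UMIs. Monocyte-like cells had a median of 5 of the 38 genes detected, granule-making neutrophil-like cells 2, intermediate ones 3 and mature ones 5. Macrophage-like and plasmacytoid dendritic-like cells had a median of 3, and B lineage-like and erythroid-like cells 1. Cells with 8 or more genes made up 14.8% of monocyte-like cells (91 of 615) and 12.9% of mature neutrophil-like cells (39 of 303). None of the 373 granulocyte-monocyte progenitor-like cells had 8 or more. Cells under 2000 UMIs were left out, among them 459 of the 762 mature neutrophil-like and 148 of the 226 macrophage-like cells, so these values describe the deeper cells.

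A few monocyte-like cells had many of the genes at once. Of the 615, 19 (3.09%) had 12 or more detected, with up to 26, and 4 had 20 or more. The threshold cuts a continuous tail: 16 cells had 10 or 11 and 6 had 12 or 13. Such cells were not limited to this class. In macrophage-like cells 2 of 78 (2.56%) had 12 or more, and in mature neutrophil-like cells 6 of 303 (1.98%), with up to 17. Of 197 T-like cells 1 did, with 17. The 19 monocyte-like cells were compared with the other 596 at 2000 UMIs each. Since the listed genes chose them, 21 of 28 genes called higher among these 38, against 2.99% of all genes higher and 1.09% lower, is a description. Genes outside the list, which took no part in the choice, were also higher. Of 27 further interferon-stimulated genes with at least 20 UMIs 16 were called higher and none lower, and of 14 interferon-gamma-inducible and antigen-processing genes 7 and none. Irf7, the master regulator of type I interferon genes, had 1026 against 79.7 CPM (ratio 12.9, 8.63 to 18.9). Ifi205, of the p200 family of interferon-inducible genes, had 368 against 6.71 CPM (14 UMIs in 5 of 19 cells, against 8 UMIs in 7 of 596), and Ifi47, an immunity-related GTPase, 263 against 13.4 CPM. Irf9 had 132 against 75.5 CPM and was not called, nor were the receptor genes Ifnar1 (105 against 99.8 CPM) and Ifnar2 (132 against 148 CPM).

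The 19 cells had a median of 7673 UMIs before thinning, against 7963.5 in the others. The monocyte gene Ly6c2 was called higher (3211 against 1431 CPM), and Ccr2 was not called (1263 against 738 CPM). The cycling genes Mki67 and Top2a had 0 UMIs in the 19 cells, which allows up to 78.9 CPM each, against 174 and 179 CPM, and Il1b had 52.6 against 462 CPM. Hbb-bs was at 15605 against 8452 CPM and S100a8 had a ratio of 1.39 (0.980 to 1.93). The part of these differences in the result was not tested.

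**Figure D5:**
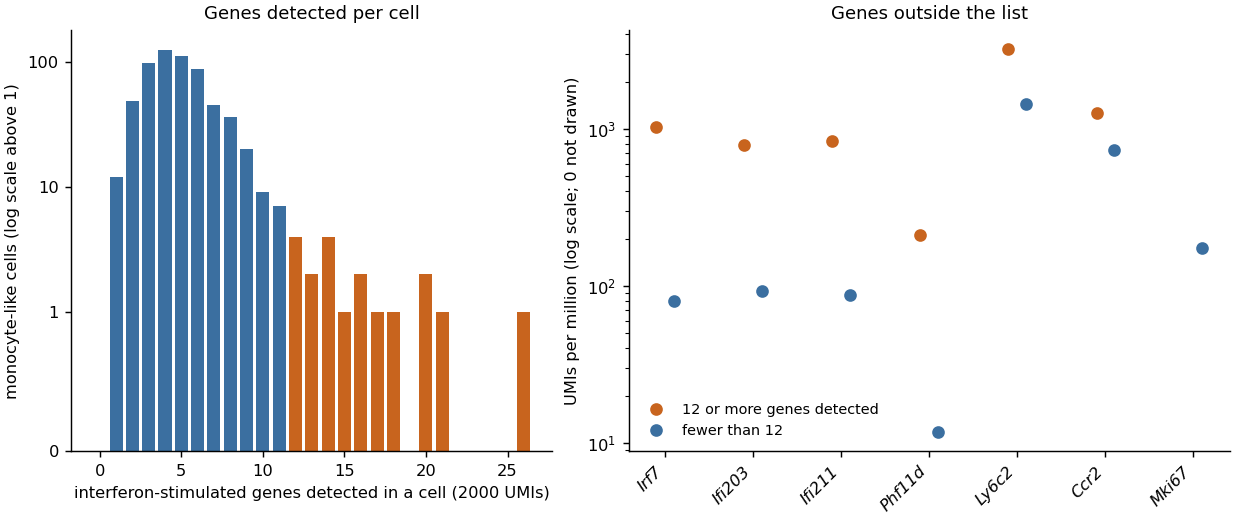
Left, number of the 38 genes detected per monocyte-like cell at 2000 UMIs, for 615 cells on a log scale above 1; orange marks the 19 cells with 12 or more. Right, level in CPM (log scale, counts of 0 not drawn) of 4 interferon-stimulated genes outside the list and of Ly6c2, Ccr2 and Mki67, in these 19 cells (orange) and the other 596 (blue). Irf7 is at 1026 in orange and 79.7 in blue, and Mki67 has no orange point.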

How the data were processed

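Raw UMI counts were deposited as 1 matrix of genes by barcodes. The file headers name Cell Ranger 3.1.0 as the program that wrote it, and Seurat 3 and mm10 are listed in the submitters' processing notes. A second matrix deposited beside it was not used here. A barcode was kept with 500 UMIs or more, 200 genes or more and a mitochondrial share of no more than 10%, and 522 doublets marked by Scrublet (scanpy 1.11.5) were removed. Counts scaled to 10000 per cell gave 2000 variable genes (listed genes left out), 30 components, 15 neighbours and Leiden clusters (leidenalg 0.10.2, resolution 1.0, seed 0). A cluster took the type with the highest share of raised markers (2 times other cells, a UMI in 10% of cells, at least 3 raised). This naming rule was set after clusters had been seen. One cluster of at least 100 cells with tied types was split at resolution 0.5. Neutrophil and B stages are sets of clusters, placed by stage markers. Ratios have exact conditional binomial intervals at 95%, and a count of 0 is given with a limit of 3 counts. The call rule was run on simulated Poisson counts without spread between cells or animals, so this cannot show how the rule does under such spread. The listed genes, pathway lists and stages were chosen with earlier results of these data known. Named by rule were the 15 genes with the most UMIs, the 2 highest ratios per class, the 4 highest and 4 lowest genes called per stage, and Irf7 and Irf9 (1 further gene of this rule is not reported here); further genes, and the comparison of monocyte-like cells by genes detected, were chosen after values had been seen. Positions are from GENCODE M21.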

Additional observations from a re-analysis of the deposited data

How the results depend on the processing

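Of 274 counts under another setting, 251 stayed within 1.5 times the value given. They are counts of genes called or of monocyte-like cells with many of the genes. Plasmacytoid dendritic-like cells had 7 genes called higher at resolution 2.0, with doublets kept or with the listed genes among the variable genes, against 11. At a mitochondrial limit of 5% the genes called higher were 12 in macrophage-like, 3 in neutrophil-like, 1 in B lineage-like and 3 in mature B cells, and neither T-like nor plasmacytoid dendritic-like cells were named. With at least 1500 UMIs per cell, macrophage-like cells had 11 higher and 6 lower, and mature B cells 5 higher and 2 lower. With stages as gates on single cells no gene was called lower in mature B cells (0). With clustering seed 1, or without the 50 most abundant genes, 1 gene was lower in mature neutrophil-like cells. Without those 50 genes B lineage-like cells had 0 higher, and the erythroid stages 12 higher and 4 lower. Leaving out haemoglobin genes, chosen after seeing the data, gave 2 higher in B lineage-like cells, 11 in erythroid-like cells, and 13 higher and 4 lower between erythroid stages. Cuts at 10 or 15 genes, also added later, gave 35 and 9 monocyte-like cells.

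Of 816 log2 ratios under another setting, 574 stayed within the interval of the value given and 19 with an interval on 1 side of 0 changed sign. Ifitm6 between neutrophil stages was at 0.30 (resolution 0.5), 0.69 (mitochondrial limit 20%), 0.30 (1500 UMIs), 0.59 (doublets kept) and 0.069 (gates). Between B stages Bst2 was at -0.56 (resolution 2.0), -0.98 (limit 5%), -0.31 (limit 20%), -0.82 (1500 UMIs), -0.16 (listed genes among the variable genes) and -0.54 (gates), and Rsad2 at -0.30 (1500 UMIs) and -0.44 (listed genes among the variable genes). Between erythroid stages Ifitm6, Ifitm1 and Ifi27l2a were at 0.27, 0.86 and 1.27 without the 50 most abundant genes and at 0.34, 0.92 and 1.34 without haemoglobin. The cause of these changes was not tested, apart from haemoglobin's share of the UMIs. A planned comparison of cells with and without an Ifit UMI was not run, since no class had 50 such cells after thinning. No paired analysis was possible because the sample records share 1 library with no map from cells to records.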

Other observations

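Among the unnamed clusters, 1 of 79 cells led with Psca, Krt13, Krt6a, Krt15 and Sprr1a, genes of layered epithelia, and was shallow, with a median of 592 UMIs per cell. It held the highest level of several listed genes. Gbp2 had 1115 CPM (59 UMIs in 31 cells, interval 849 to 1438), against 22.5 CPM in T-like cells, its highest named class. Zbp1 had 397 CPM (21 UMIs in 17 cells, 246 to 607), Isg15 340 CPM (18 UMIs in 13 cells, 202 to 538) and Ifit3 321 CPM (17 UMIs in 15 cells, 187 to 514). Rsad2 had 0 UMIs there, which allows up to 56.7 CPM, although it had 193 CPM in mature neutrophil-like cells together with Isg15. S100a8 and Hbb-bs were at 832 and 1833 CPM there, against 447 and 1776 CPM in B lineage-like cells, where Gbp2 had 3.99 CPM. Other neutrophil markers were uneven there: Ltf was at 4744 CPM, against 250 CPM in mature neutrophil-like cells, while Ngp was at 94.5 CPM, against 1093 CPM, and Mmp8 had 0 UMIs. The part of other cells' RNA in these levels was not tested.

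A second unnamed cluster, of 61 cells with a median of 801 UMIs, led with Slfn14, Tmcc2, Ypel4 and Sowaha, as did an erythroid-like cluster of 398 cells. Rsad2 reached 4441 CPM in it (229 UMIs in 52 of 61 cells, interval 3885 to 5055), against 1431 CPM in that erythroid-like cluster. Haemoglobin gene Hbb-bs was at 85879 CPM in the 61 cells and at 311299 CPM in the 398. Both Rsad2 levels have all UMIs as the base, and the part of haemoglobin's share in their difference was not tested.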
